A study of Arabidopsis thaliana with 2 samples.

Results

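The B-box (BBX) genes of Arabidopsis thaliana encode zinc finger transcription factors, among them CONSTANS (CO) and the CONSTANS-like (COL) proteins. The 32 genes BBX1 to BBX32 were taken by locus identifier, and all 32 were among the 33557 loci of the deposited table. Values were compared between leaves of Atclb1-1 plants, homozygous for a T-DNA insertion in AtCLB and labelled loss of function, and leaves of wild type (WT) plants. Both lines were Columbia plants aged 2 weeks, kept at a constant 23 °C with a 16-h photoperiod, and each genotype is represented by 1 RNA-seq library. The AtCLB product binds lipids in a calcium-dependent way through a C2 domain. How many plants a library holds, at what hour leaves were taken and where the insertion lies were not given in the sources used here.

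B-box domains fold around zinc and bind other proteins. The family is divided into 5 structural groups: groups I and II have a pair of B-boxes and a CCT domain, a DNA-contacting domain named after CO, COL and TOC1; group III has a single B-box and a CCT domain; group IV has a pair of B-boxes without CCT; and group V has a single B-box. In leaves these proteins link light and the circadian clock to flowering, greening and pigment synthesis. Many of them are marked for breakdown by the COP1-SPA ubiquitin ligase, and several act together with, or against, the light-signalling bZIP factor HY5. The TAIR10.1 annotation names a B-box in all 32 members and a CCT domain in 17, all of them the members of groups I to III.

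Values are FPKM, fragments per kilobase of transcript scaled to the size of the library. A difference is the log2 of (Atclb1-1 FPKM + 1) over (WT FPKM + 1), which understates the change of low genes, and a fold is the plain ratio of the FPKM values. A gene was counted as higher or lower at 2-fold or more on the log2 scale if it reached 1 FPKM in at least 1 library. With 1 library per genotype there was no test between genotypes, no replicate error and no replicate check of any difference. AtCLB itself stood at 13.5 FPKM in Atclb1-1 and 39.2 FPKM in WT, 2.90-fold lower. Steps among low values put the Atclb1-1 library at 1.21 times the depth of WT. The 8 reference genes had a median difference of -0.03, from -0.17 to 0.64. All 6 leaf mesophyll markers were present, at a summed level of 24574 FPKM in Atclb1-1 and 41357 FPKM in WT. They did not move together: 3 were at least 2-fold lower and 3 lay within 2-fold. Of the latter LHCB1.1 was lower, while RCA was higher, at 6038 FPKM in Atclb1-1 and 3643 FPKM in WT. LHCB2.1 was also higher, at 1951 FPKM in Atclb1-1 and 1765 FPKM in WT. Of 6 root markers 5 were at 0 in both libraries. The 5 flower markers summed to 2.44 FPKM in Atclb1-1 and 2.57 FPKM in WT. Among them PI was higher, at 1.36 FPKM in Atclb1-1 and 0.0635 FPKM in WT. SEP3 was at 0.207 FPKM in Atclb1-1 and 1.06 FPKM in WT. The 5 seed markers summed to 0 FPKM in Atclb1-1 and 0.213 FPKM in WT.

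Most B-box genes that were measurable in these leaves stood apart between the libraries. Of 32 members 26 passed the filter. Of these, 13 were at least 2-fold higher in Atclb1-1, against 17.2% of all 18171 loci tested, and 8 were at least 2-fold lower, against 10.8% of all loci tested. In both directions together this is 21 of 26 members, or 80.8%, against 28.0% of all loci. The median difference of the 26 members was 0.73, between -5.82 for BBX7 and 4.45 for BBX30, and that of all loci was 0.21. At a 4-fold threshold 16 of the 26 members were apart, against 7.93% of all loci, with 11 higher against 5.29% and 5 lower against 2.64%. BBX7, BBX30 and BBX32 passed the filter in 1 library only, so a difference was built into their passing. Where both libraries had to reach 1 FPKM, 23 members were left and 18 of them were apart, against 23.5% of 15997 loci, with 11 higher against 14.6% and 7 lower against 8.90%.

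**Figure D1:**
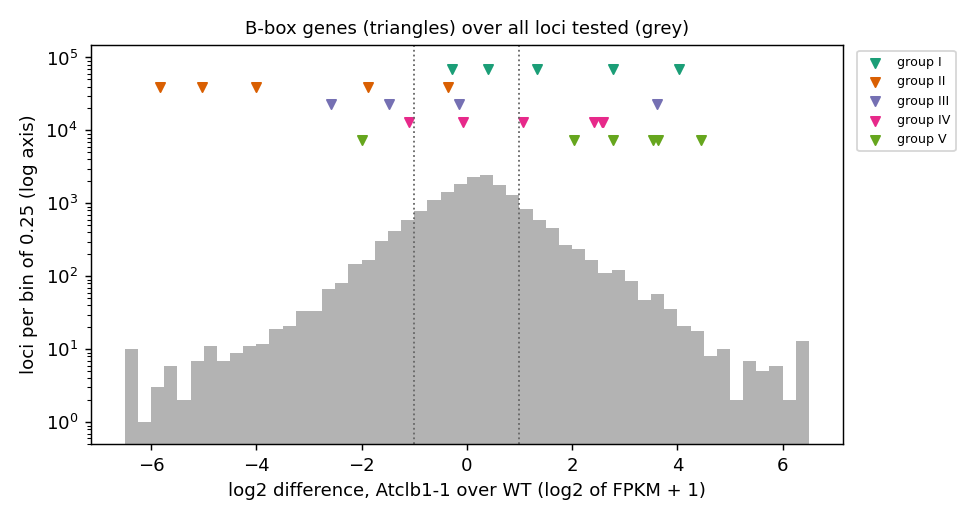
Number of loci (log axis) by log2 difference between Atclb1-1 and WT for the 18171 loci tested, in grey, with values beyond the axis gathered in the outermost bins. Triangles mark the 26 B-box genes that passed the filter, in 1 row and colour per structural group with heights of no meaning. The dotted lines mark 2-fold, and 21 of the 26 triangles lie beyond them.

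Directions differed between structural groups, each with few genes past the filter. Over all loci tested 17.2% were higher and 10.8% lower. In group I, 3 of 5 members tested were higher and none lower. In group II, none of 5 was higher and 4 were lower. Group III had 1 of 4 members higher and 2 lower. In group IV, 4 of 6 members were higher and 1 lower, and in group V, 5 of 6 were higher and 1 lower. The group medians were 1.33 in group I, -4.01 in group II, -0.81 in group III, 1.74 in group IV and 3.16 in group V. BBX7 in group II and BBX30 and BBX32 in group V passed the filter in 1 library only, so their differences were built in. Where both libraries had to reach 1 FPKM, the median was -2.94 for 4 members of group II and 2.40 for 4 of group V. Without members overlapping another gene the median of group III was 1.73. The sum of all 32 genes was 2050 FPKM in Atclb1-1 and 1676 FPKM in WT, 1.22-fold higher. In that pool group II made up 1.54% in Atclb1-1 and 20.5% in WT, while group V made up 11.1% in Atclb1-1 and 3.0% in WT. Since the samples are bulk leaves, fewer cells of a type and less RNA per cell cannot be told apart.

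**Figure D2:**
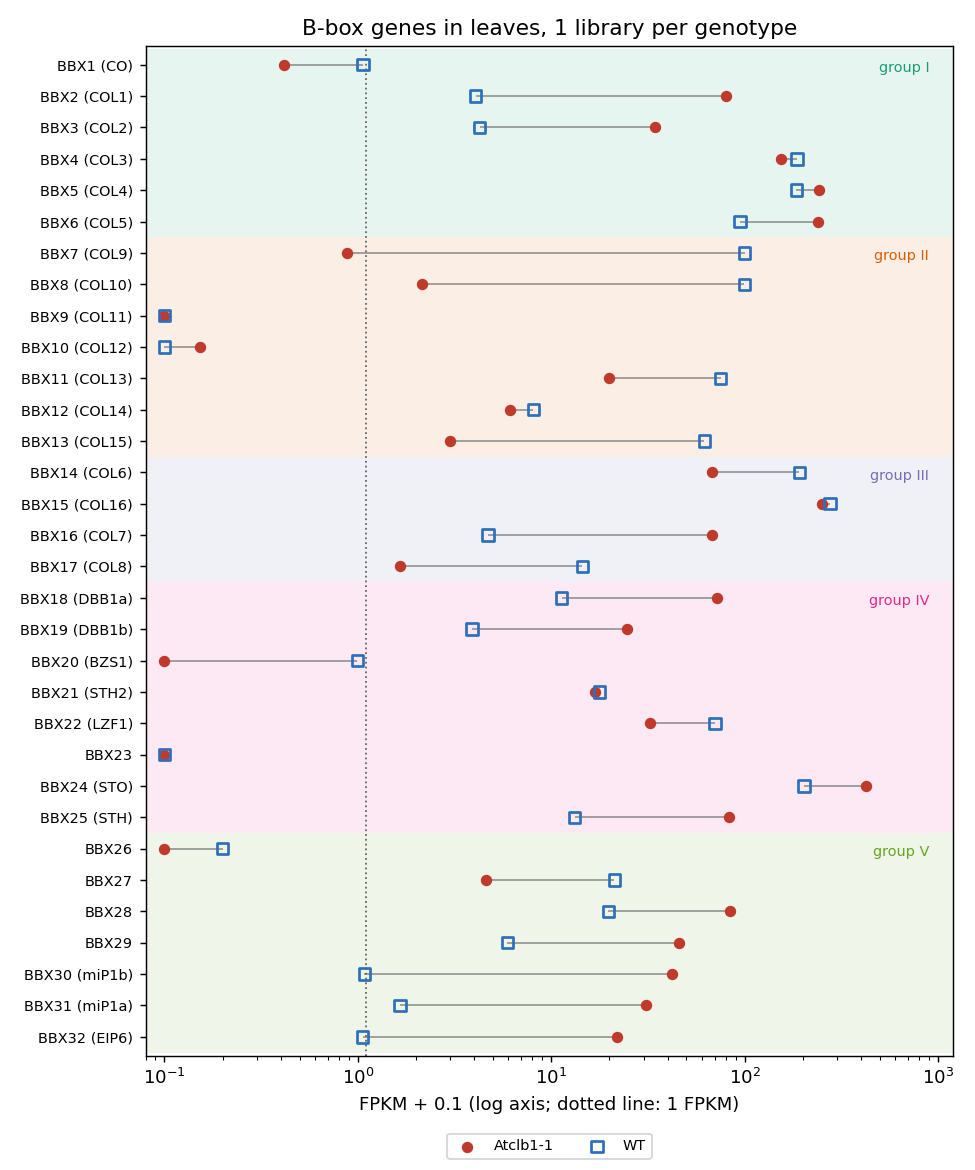
FPKM + 0.1 on a log axis for each of the 32 B-box genes, with Atclb1-1 as filled circles and WT as open squares, 1 library each, and a grey line joining the pair. The background colours mark groups I to V, and the dotted line marks 1 FPKM. In group II the circles of BBX7, BBX8, BBX11 and BBX13 lie left of the squares, and in group V those of BBX28 to BBX32 lie right.

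**Figure D3:**
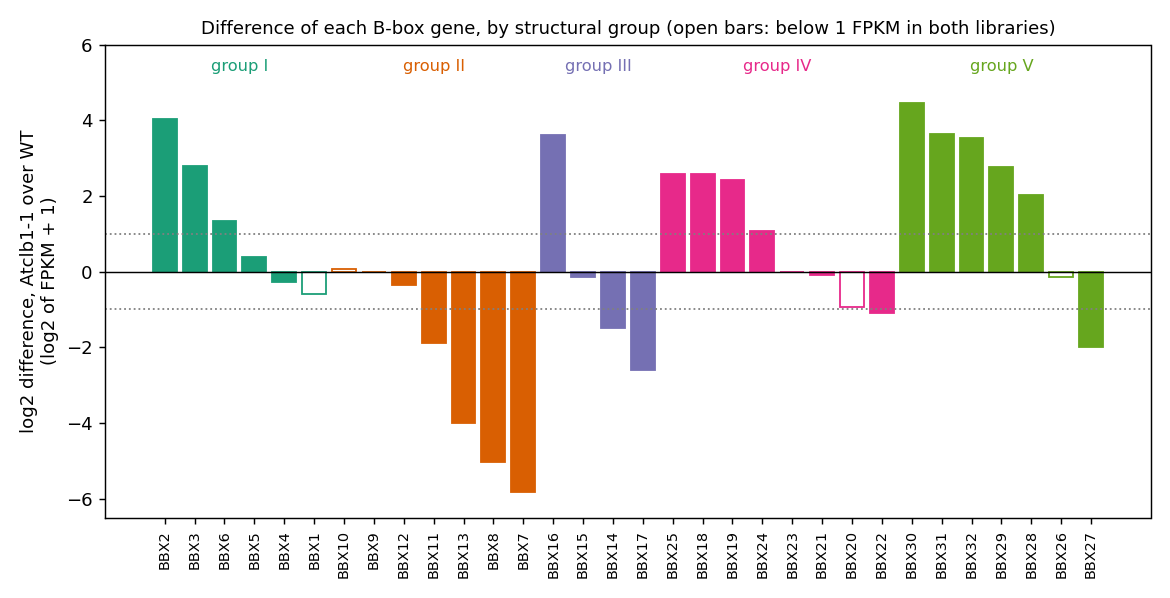
Difference on the log2(FPKM + 1) scale, Atclb1-1 over WT, for each B-box gene, sorted within its structural group. Dotted lines mark 2-fold, and open bars are genes below 1 FPKM in both libraries. The bars run from 4.45 for BBX30 to -5.82 for BBX7.

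The lowest values of the family were in group II. BBX7 (COL9; AT3G07650, TAIR10.1 chromosome 3, 2441565 to 2444532, plus strand), which delays flowering by keeping CO and FT transcripts low, stood at 0.781 FPKM in Atclb1-1 and 99.9 FPKM in WT. This is 128-fold lower, and its difference ranked 14 from the lowest among the 18171 loci tested. BBX8 (COL10; AT5G48250, chromosome 5, 19561319 to 19563832, minus strand), its closest relative, was at 2.06 FPKM in Atclb1-1 and 99.6 FPKM in WT, 48.4-fold lower and at rank 27. Both genes had nearly the same level in WT and were near the filter in Atclb1-1. BBX13 (COL15; AT1G28050, chromosome 1, 9775522 to 9778043, minus strand) was 21.3-fold lower, at 2.90 FPKM in Atclb1-1 and 61.8 FPKM in WT.

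BBX7, BBX8 and BBX13, picked here for their low differences, shared a feature of their upstream sequence. The evening element AAATATCT, a motif bound by CCA1, LHY and the REVEILLE factors, was searched on both strands of the 1000 bases before each annotated start. It was present in 15.3% of 27443 nuclear protein-coding genes, and in 10 of the 32 BBX genes. At least 3 copies were found in 0.259% of all genes and in 3 BBX genes, which were BBX7, BBX8 and BBX13. The limit of 3 copies was set after the matches had been seen. Of the 10 BBX genes with the element 4 were lower, 4 were higher, 1 lay within 2-fold and 1 was below the filter. Over all loci tested 10.8% were lower and 17.2% higher, and of the 26 BBX genes tested 8 were lower and 13 higher. As most of the family was apart, such counts by direction say little about the element. The stretches that hold most of these copies, read from the TAIR10.1 genome, are given on the strand of the gene, 5′ to 3′, with evening elements of either strand in capitals, to show how closely the copies lie.
BBX7, chr3:2440965-2441184, plus strand, a stretch of 220 bases farther upstream that does not adjoin the start: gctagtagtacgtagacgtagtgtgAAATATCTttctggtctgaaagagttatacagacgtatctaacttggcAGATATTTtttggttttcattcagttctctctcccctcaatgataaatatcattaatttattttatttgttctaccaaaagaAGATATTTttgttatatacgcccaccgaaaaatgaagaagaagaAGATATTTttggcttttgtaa
BBX8, chr5:19563833-19564132, minus strand, the 300 bases before the start: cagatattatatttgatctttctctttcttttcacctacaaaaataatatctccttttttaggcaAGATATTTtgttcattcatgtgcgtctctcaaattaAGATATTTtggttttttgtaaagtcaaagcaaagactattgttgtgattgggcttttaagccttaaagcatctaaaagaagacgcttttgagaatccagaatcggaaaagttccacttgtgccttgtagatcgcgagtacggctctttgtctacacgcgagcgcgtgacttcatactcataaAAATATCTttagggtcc
BBX13, chr1:9778044-9778343, minus strand, the 300 bases before the start: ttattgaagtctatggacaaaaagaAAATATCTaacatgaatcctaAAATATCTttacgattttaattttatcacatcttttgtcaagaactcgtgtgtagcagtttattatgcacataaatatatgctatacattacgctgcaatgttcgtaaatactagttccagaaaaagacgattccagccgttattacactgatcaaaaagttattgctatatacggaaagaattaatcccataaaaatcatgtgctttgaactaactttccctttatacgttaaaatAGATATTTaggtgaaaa
In the 1000 bases BBX7 has 4 copies, all within the stretch shown, BBX8 has 5, of which 3 are shown, and BBX13 has 4, of which 3 are shown. No annotated gene overlaps these stretches. In the 300 bases nearest the start, 5.64% of all genes held the element and 0.0292% held 3 or more. There it was found in 4 of the 32 BBX genes, BBX3, BBX8, BBX13 and BBX24, of which 2 were higher and 2 lower. BBX8 and BBX13 held 3 copies each in that window, and BBX7 held none. Other clock-related motifs were spread over the family: the CCA1-binding site AAAAATCT was found within 1000 bases of 11 BBX genes and 21.2% of all genes, and the LUX-binding site GATTCG within 1000 bases of 11 BBX genes and 28.2% of all genes. A match is a description of the sequence and not of binding.

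**Figure D4:**
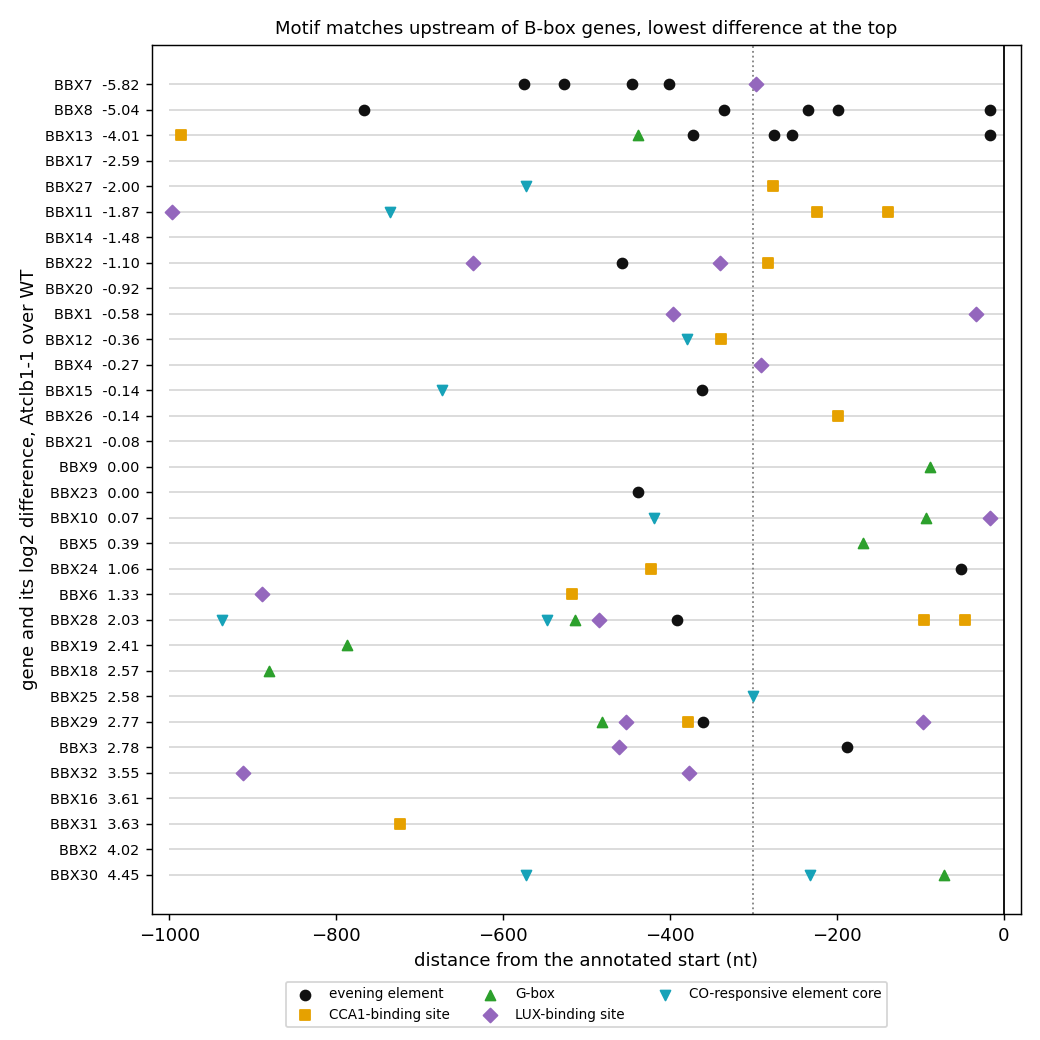
Matches to 5 motifs in the 1000 bases before the annotated start of each B-box gene, with the distance from the start in bases on the horizontal axis and the dotted line at 300. Genes run from the lowest difference at the top to the highest at the bottom, with the log2 difference of Atclb1-1 over WT beside each name. Black circles, the evening elements, stand 3 or more to a row in the top 3 rows only.

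The rest of group II was less uniform. BBX11 (COL13; AT2G47890), known to promote seedling responses to light, was 3.80-fold lower, at 19.7 FPKM in Atclb1-1 and 74.9 FPKM in WT. BBX12 (COL14; AT2G33500) lay within 2-fold, at 6.01 FPKM in Atclb1-1 and 7.98 FPKM in WT. BBX9 (COL11; AT4G15250) was listed at 0 in both libraries. BBX10 (COL12; AT3G21880), a flowering repressor that binds CO, was at 0.0525 FPKM in Atclb1-1 and 0 in WT, near the value of 1 fragment. Thus 4 of the 5 members tested were lower, against 10.8% of all loci tested. BBX9 and BBX10 were below the filter and could not be called in either direction.

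Group I holds CO and its nearest relatives. CO (BBX1; AT5G15840, chromosome 5, 5170162 to 5173085, minus strand) activates the florigen gene FT in the leaf veins under long days. It stood below the filter, at 0.317 FPKM in Atclb1-1 and 0.967 FPKM in WT, and no call is made from so low a level. On the opposite strand AT5G15843 overlaps 1967 bases of it. COL1 (BBX2; AT5G15850, chromosome 5, 5176091 to 5177897, minus strand), known to peak at dawn, was 20.1-fold higher, at 79.8 FPKM in Atclb1-1 and 3.97 FPKM in WT. COL2 (BBX3; AT3G02380), which also peaks at dawn, was 8.28-fold higher, at 34.4 FPKM in Atclb1-1 and 4.16 FPKM in WT. CO and COL1 are neighbours on the same strand, 3005 bases apart, and only COL1 passed the filter.

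The other members of group I were strongly expressed in both libraries. COL5 (BBX6; AT5G57660), which induces flowering when overexpressed, was 2.53-fold higher, at 239 FPKM in Atclb1-1 and 94.5 FPKM in WT. COL3 (BBX4; AT2G24790), a target of COP1 that promotes seedling responses to light and represses flowering, was at 154 FPKM in Atclb1-1 and 186 FPKM in WT. COL4 (BBX5; AT5G24930), a flowering repressor, was at 243 FPKM in Atclb1-1 and 185 FPKM in WT. COL3 and COL4 lay within 2-fold.

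Group III was split. BBX16 (COL7; AT1G73870, chromosome 1, 27778984 to 27780809, plus strand), which promotes branching and responds to shade, was 14.6-fold higher, at 67.6 FPKM in Atclb1-1 and 4.61 FPKM in WT. BBX17 (COL8; AT1G49130), which delays flowering, was 9.25-fold lower, at 1.56 FPKM in Atclb1-1 and 14.4 FPKM in WT. BBX14 (COL6; AT1G68520) was 2.82-fold lower, at 68.0 FPKM in Atclb1-1 and 192 FPKM in WT. BBX15 (COL16; AT1G25440), the highest member in WT, was at 250.0 FPKM in Atclb1-1 and 276 FPKM in WT, within 2-fold.

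**Figure D5:**
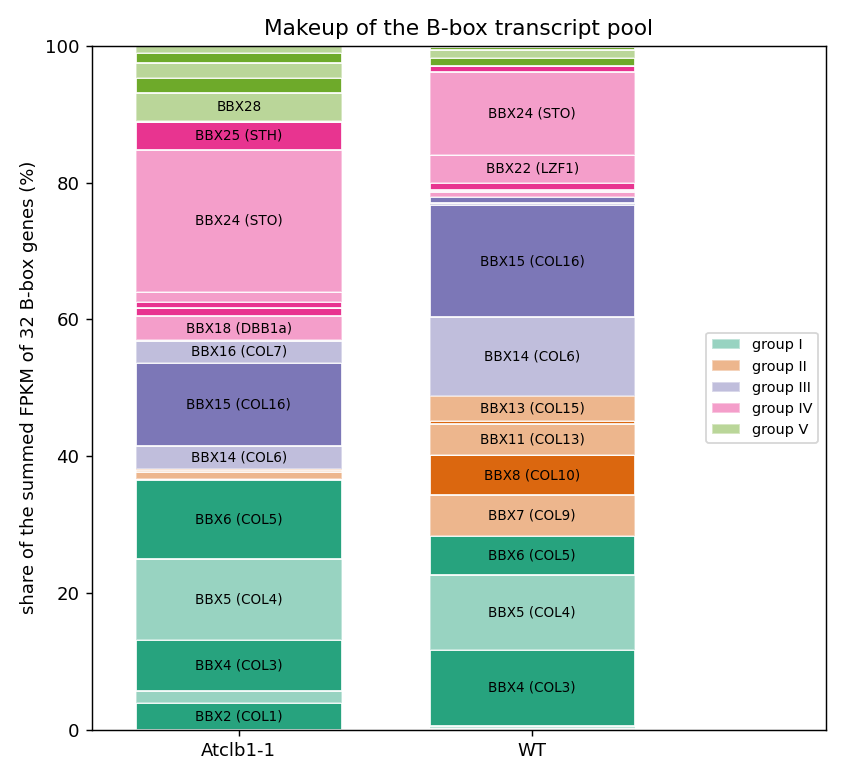
Share of the summed FPKM of the 32 B-box genes taken by each gene, in percent, in Atclb1-1 (left) and WT (right), coloured by structural group with shades alternating between genes and names given above 3%. Group II takes 1.54% in Atclb1-1 and 20.5% in WT, and BBX24 takes 20.7% in Atclb1-1 and 12.1% in WT.

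Group IV holds the double B-box proteins without CCT. Of its 6 members tested 4 were higher, against 17.2% of all loci tested, and BBX20 and BBX23 were below the filter. BBX24 (STO; AT1G06040, chromosome 1, 1828340 to 1829983, minus strand), which interferes with HY5, was at 425 FPKM in Atclb1-1 and 203 FPKM in WT, and was the highest member in Atclb1-1. Its difference was 1.06, and 0.86 once the median ratio of all loci was set to 0, below the 2-fold line. Its partner BBX25 (STH; AT2G31380) was 6.36-fold higher, at 83.4 FPKM in Atclb1-1 and 13.1 FPKM in WT. BBX18 (DBB1a; AT2G21320), a repressor of heat tolerance and of light responses, was 6.39-fold higher, at 71.7 FPKM in Atclb1-1 and 11.2 FPKM in WT. BBX19 (DBB1b; AT4G38960), which binds CO and delays flowering, was 6.46-fold higher, at 24.5 FPKM in Atclb1-1 and 3.80 FPKM in WT. The ratios of BBX18, BBX19 and BBX25 were close to each other.

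The remaining members of group IV were not higher. BBX22 (LZF1; AT1G78600), which raises chlorophyll and anthocyanin synthesis, was 2.18-fold lower, at 32.1 FPKM in Atclb1-1 and 70.2 FPKM in WT. BBX21 (STH2; AT1G75540), which activates HY5, was at 16.7 FPKM in Atclb1-1 and 17.7 FPKM in WT. BBX20 (BZS1; AT4G39070), linked to brassinosteroid signalling, was listed at 0 in Atclb1-1 and at 0.895 FPKM in WT, just under the filter. BBX23 (AT4G10240) was listed at 0 in both libraries.

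Group V holds members with a single B-box and no CCT domain. Of its 6 members tested 5 were higher, against 17.2% of all loci tested, and BBX26 was below the filter. BBX30 (miP1b; AT4G15248, chromosome 4, 8708841 to 8709482, plus strand) and BBX31 (miP1a; AT3G21890, chromosome 3, 7708833 to 7709933, minus strand) are microProteins, single B-boxes that bind CO and bring it to the corepressor TOPLESS. BBX30 was 43.0-fold higher, at 42.1 FPKM in Atclb1-1 and 0.981 FPKM in WT, with a difference at rank 56 from the highest of 18171 loci. BBX31 was 19.7-fold higher, at 30.7 FPKM in Atclb1-1 and 1.55 FPKM in WT. Their coding sequences span 354 bases in BBX30 and 366 bases in BBX31. BBX32 (EIP6; AT3G21150), which counteracts BBX21, was 22.8-fold higher, at 21.9 FPKM in Atclb1-1 and 0.959 FPKM in WT. All 3 were above 20 FPKM in Atclb1-1 and at the edge of the filter in WT.

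BBX30 held no evening element in its 1000 bases, but a G-box (CACGTG), the motif of HY5 and PIF factors, and the core of the CO-responsive element (TGTGNNATG). In the 300 bases nearest the start the G-box occurred in 7.09% and the CO-responsive core in 4.03% of all genes. BBX30 was the 1 BBX gene of 32 with the CO-responsive core there, a share below that of all genes. Within 1000 bases the core was found in 8 BBX genes and 13.7% of all genes. Of these 8, 3 were higher, 2 lower, 2 within 2-fold and 1 below the filter. Over all loci tested 17.2% were higher and 10.8% lower, and of the 26 BBX genes tested 13 were higher and 8 lower. These counts say little about the core. The upstream stretch of BBX30 is shown with both motifs in capitals, as that of the member with the highest difference.
BBX30, chr4:8708541-8708840, plus strand, the 300 bases before the start: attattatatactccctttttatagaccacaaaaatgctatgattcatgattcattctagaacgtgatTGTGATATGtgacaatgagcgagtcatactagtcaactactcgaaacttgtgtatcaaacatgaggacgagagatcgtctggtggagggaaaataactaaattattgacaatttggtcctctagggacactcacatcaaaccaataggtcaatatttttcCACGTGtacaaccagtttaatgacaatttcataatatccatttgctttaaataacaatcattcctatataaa
The G-box was found in 4 BBX genes in this window, namely BBX5, BBX9, BBX10 and BBX30. No motif match overlapped one of another kind in any member.

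BBX30 and BBX31 each lie next to a group II gene in opposite orientation. BBX30 lies 284 bases from BBX9, which was at 0 in both libraries. BBX31 lies 486 bases from BBX10, at 0.0525 FPKM in Atclb1-1 and 0 in WT. The higher values of the microProtein genes were not accompanied by a measurable transcript of the neighbouring gene.

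The other members of group V were less far apart. BBX29 (AT5G54470) was 7.84-fold higher, at 45.8 FPKM in Atclb1-1 and 5.84 FPKM in WT. BBX28 (AT4G27310), which binds HY5 and weakens it, was 4.24-fold higher, at 83.4 FPKM in Atclb1-1 and 19.6 FPKM in WT. BBX27 (AT1G68190) was the exception, 4.66-fold lower at 4.53 FPKM in Atclb1-1 and 21.1 FPKM in WT. BBX26 (AT1G60250) was listed at 0 in Atclb1-1 and at 0.0999 FPKM in WT, near the value of 1 fragment.

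The order of levels within the family differed between the libraries. In Atclb1-1 the 5 highest members were BBX24, BBX15, BBX5, BBX6 and BBX4, with 63.9% of the pool. In WT they were BBX15, BBX24, BBX14, BBX4 and BBX5, with 62.2% of the pool, and 4 genes were among the 5 highest in both. BBX7 ranked 26 in Atclb1-1 and 6 in WT, and BBX8 ranked 24 in Atclb1-1 and 7 in WT. COL1 ranked 8 in Atclb1-1 and 22 in WT. Without replicates, neighbours in either order cannot be told apart.

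Clock genes stood apart in the same libraries, in which 17.2% of all loci tested were higher and 10.8% lower. All 4 dawn genes were at least 2-fold higher, with CCA1 at 162 FPKM in Atclb1-1 and 7.39 FPKM in WT, LHY at 74.0 FPKM in Atclb1-1 and 3.41 FPKM in WT, and RVE1 at 38.8 FPKM in Atclb1-1 and 1.62 FPKM in WT. Of 6 evening genes 5 were at least 2-fold lower, with ELF4 at 4.95 FPKM in Atclb1-1 and 343 FPKM in WT, LUX at 1.05 FPKM in Atclb1-1 and 56.6 FPKM in WT, and PRR3 at 0.480 FPKM in Atclb1-1 and 34.9 FPKM in WT. PRR3 passed the filter in WT only, so a difference was built into its passing. The 5 evening genes at 1 FPKM or more in both libraries had a median difference of -4.03. Many BBX genes are known to cycle over the day. The part of the clock genes in the differences of the BBX genes was not tested, and as the hour of harvest is unknown here, time of day and genotype cannot be told apart.

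HY5, its homologue and part of the COP1-SPA genes were at least 2-fold higher, as were 17.2% of all loci tested. Of 6 genes of the COP1-SPA ligase and HOS1, another ubiquitin ligase of CO, 3 reached 2-fold upwards and 0 downwards, and the median difference was 1.03. SPA4 was at 20.6 FPKM in Atclb1-1 and 4.21 FPKM in WT, SPA3 at 33.5 FPKM in Atclb1-1 and 10.3 FPKM in WT, and SPA1 at 69.2 FPKM in Atclb1-1 and 27.5 FPKM in WT. The median was 0.64 once a trend with the length and GC content of transcripts was taken out. HY5 was 2.89-fold higher, at 18.5 FPKM in Atclb1-1 and 6.41 FPKM in WT, and its homologue HYH 7.28-fold higher, at 83.7 FPKM in Atclb1-1 and 11.5 FPKM in WT. Of 5 TOPLESS corepressor genes 2 were higher, against 17.2% of all loci tested, and 0 lower, against 10.8%. So short a list says little beside these shares. Their median difference was 0.86, which was 0.24 without the length and GC trend. TPL was at 56.0 FPKM in Atclb1-1 and 18.9 FPKM in WT, TPR4 at 40.2 FPKM in Atclb1-1 and 14.8 FPKM in WT, and TPR2 at 28.4 FPKM in Atclb1-1 and 15.2 FPKM in WT.

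Genes around CO and its targets had smaller or mixed differences. Over all loci tested 17.2% were higher and 10.8% lower, and the lists given here are short beside these shares. Of 6 regulators of CO transcription 4 were higher and 1 lower, with a median of 1.26 and a mean of -0.03, so that median and mean had opposite signs. FKF1, a blue-light receptor that removes the CO repressors named CDFs, was at 0.526 FPKM in Atclb1-1 and 78.9 FPKM in WT. FKF1, the 1 lower gene of this list, passed the filter in WT only, so a difference was built into its passing. The 5 regulators at 1 FPKM or more in both libraries had a median of 1.31. CDF2 was at 16.2 FPKM in Atclb1-1 and 2.50 FPKM in WT, and CDF3 at 115 FPKM in Atclb1-1 and 38.0 FPKM in WT. Of 5 NF-Y subunits that carry CO to DNA, 1 was lower and 0 higher, with a median of -0.14. NF-YC4 was at 18.3 FPKM in Atclb1-1 and 53.0 FPKM in WT, NF-YB3 at 33.0 FPKM in Atclb1-1 and 65.6 FPKM in WT, and NF-YC9 at 50.1 FPKM in Atclb1-1 and 40.8 FPKM in WT. None of the 3 CO targets reached 2-fold, with FT at 14.4 FPKM in Atclb1-1 and 25.5 FPKM in WT, TSF at 1.46 FPKM in Atclb1-1 and 2.33 FPKM in WT, and SOC1 at 224 FPKM in Atclb1-1 and 203 FPKM in WT.

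Annotated overlaps limit some values, as use of strand in the authors' quantification was not given in the sources used here. Of 32 members 13 overlap another annotated gene, 11 of them on the opposite strand. COL1 is overlapped over all of its 1807 bases by AT5G15845, a noncoding RNA gene at 0.636 FPKM in Atclb1-1 and 0.114 FPKM in WT. COL2 shares 771 and 688 bases with AT3G02370, at 2.67 FPKM in Atclb1-1 and 1.66 FPKM in WT, and with AT3G02390, at 1.76 FPKM in Atclb1-1 and 0.893 FPKM in WT. BBX24 shares 344 bases with AT1G06045, which, like AT5G15843 over CO, has no value in the deposited table. BBX14 shares 329 bases with AT1G68510, at 0 in Atclb1-1 and 0.189 FPKM in WT. BBX11 shares 327 bases on the same strand with AT2G47895, at 0.779 FPKM in Atclb1-1 and 0.938 FPKM in WT. Leaving out overlapping members, 8 of 16 were higher, against 17.2% of all loci, and 4 lower, against 10.7%. Exact stretches of 30 bases were shared by 4 pairs of members, and no such pair shares more than 0.566% of its stretches. Stretches shared with loci outside the family were not counted. How the authors' quantification treated reads that match several loci was not given, so the weight of divided reads was not tested.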

How the data were processed

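Leaf RNA of 1 Atclb1-1 and 1 WT library was sequenced, and groups were taken from the genotype labels. The authors deposited a table of FPKM values, a unit known per the file headers. TopHat 1.3.2, Cuffdiff and the TAIR10 build are listed per the submitters' processing notes; parameters, filters and gene models were not given in the sources used here. Because FPKM is relative to the library total, abundant loci shift all others. The deposited table holds no coordinates, and names, transcript lengths and sequence came from the TAIR10.1 RefSeq annotation and genome by locus identifier. Members and lists were chosen with earlier results of these data known.

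Differences were log2((Atclb1-1 FPKM + 1)/(WT FPKM + 1)), with loci kept if either library reached 1 FPKM and counted at 2-fold (Python 3.11.15, pandas 2.3.3). The counting of loci past 2-fold was checked on simulated data with known folds, which is no test between genotypes. No p-value was computed. All members are named with their values, and up to 3 members of each other list, those with the largest absolute difference. The 5 motifs were searched on both strands of the 300 and 1000 bases before the starts of 27443 genes. The planned protein features were limited to the annotation's domain names. Depth was read from ratios of 2434 loci below 1 FPKM, which piled up at 0.826. The value of 1 fragment on 1 kb lay between 0.055 and 0.06 FPKM in Atclb1-1 and between 0.065 and 0.07 FPKM in WT. Whole-read values were not recovered and counting intervals were not computed. Alternatives were pseudocounts of 0.1 and 5, median ratio set to 0, same nuclear total, no filter, a filter at 5 FPKM, 4-fold, and means. Removal of a length and GC trend (20 by 10 bins), 1 FPKM or more in both libraries, and leaving out overlapping members were chosen after seeing the data.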

Additional observations from a re-analysis of the deposited data

How the results depend on the processing

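No paired analysis was possible because each genotype has 1 library and no test was made. The counts of 13 higher and 8 lower members were kept in number with pseudocounts of 0.1 and 5, the same nuclear total, no filter and a filter at 5 FPKM. The share of all loci called in either direction moved more. It was 28.0% in the main setting, 34.4% with a pseudocount of 0.1 and 15.6% with 5. With the same nuclear total it was 29.1%, with no filter 15.1% and with a filter at 5 FPKM 28.4%. The member counts were 12 and 8 with the median ratio set to 0, where 13.9% of all loci were higher and 13.5% lower. They were also 12 and 8 with the length and GC trend removed, against 13.2% higher and 13.7% lower. At 1 FPKM or more in both libraries they were 11 and 7, against 14.6% and 8.90%. A 4-fold threshold left 11 higher, against 5.29% of all loci, and 5 lower, against 2.64%. Without overlapping members, by construction of fewer members, the counts were 8 and 4, against 17.2% and 10.7% of all loci. Setting the median ratio to 0 shifts all loci by 0.21 on the log2 scale; higher loci made up 61.5% of all loci called, 50.7% after that shift and 49.0% after trend removal.

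The median difference of all members was 0.73, and 0 with no filter, where members at 0 enter. No filter also gave 0.86 for group I, -1.87 for group II and 0.53 for group IV. With a pseudocount of 5 the medians were -3.08 for group II, 2.20 for group V, 0.92 for the COP1-SPA list, 3.02 for dawn and -3.10 for evening clock genes. With the median ratio set to 0 group III was at -1.02 and the COP1-SPA list at 0.83. Trend removal gave 0.64 for the COP1-SPA list and 0.24 for TOPLESS genes. At 1 FPKM in both libraries group II was at -2.94 and group V at 2.40. Without overlapping members group I was at 0.39, group II at -4.92 and group III at 1.73. As means, group II was at -3.42, group III at -0.15, group V at 2.40, and the regulators of CO at -0.028 where the median was 1.26. The cause of the other changes was not tested. Among 154 values of single members under other settings, BBX21 was the 1 member whose difference changed sign, at -0.08 and, with the same nuclear total, 0.018, within 2-fold in both. BBX24 was 0.86 with the median ratio set to 0 and 0.97 after trend removal. Depth limits BBX10 and BBX26, whose values lie near that of 1 fragment.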
